A study of Mus musculus with 31 samples.

Results

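Cytosolic ribosomal protein genes were followed across the lymphoid organs of GIT2KO and wild-type (WT) mice. The genes were taken by name from the array annotation: Rpl (large subunit) or Rps (small subunit) followed by a number, with Rplp0, Rplp1, Rplp2 and Rpsa, and without the Rps6k kinases and pseudogenes. On the array 64 of 16593 genes met this description, 40 of the large and 24 of the small subunit. Of these, 57 genes (35 large-subunit and 22 small-subunit genes, read by 69 probes) had a probe with a detection p under 0.05 on 3 or more arrays, as did 10496 genes in all, and only these 57 were tested. The 7 genes that did not reach this level were Rpl14, Rpl17, Rpl39l, Rpl6, Rplp2, Rps23 and Rpsa. The 6 kinase genes were left out, as were Rps19bp1 and Rps23rg1, whose names begin the same way but whose products are not ribosomal subunits. Rpl11 was not analysed here.

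The tested animals were GIT2KO homozygotes, a gene-trap line on a C57BL/6 background, and their controls were WT C57BL/6 mice; all were males of 12 months of age that had been fasted before the tissues were taken. Total RNA came from 9 groups of 3 samples each: the parathymic lobes (PTL) of GIT2KO mice, which the sample labels call extra lymph nodes and which have no WT counterpart, and the thymus, inguinal lymph nodes (ILN), mesenteric lymph nodes (MLN) and spleen of both genotypes. The labels tie the 27 samples to 7 animals, 4 GIT2KO and 3 WT, so the tissues of 1 genotype come from the same mice, apart from the third PTL sample, which came from a GIT2KO mouse that gave no other sample. Values are log2 signals on Illumina bead arrays after background correction and quantile normalization, and a gene was called where the limma test across all 15291 tested probes gave an adjusted p under 0.05.

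The ribosome is built from ribosomal RNA and a fixed set of proteins that enter it in near equal numbers, and cells that grow or divide spend much of their transcription on it. Most of the messenger RNAs for these proteins start with a cytosine inside a run of pyrimidines, the terminal oligopyrimidine (TOP) motif, through which the growth kinase mTORC1 sets how strongly they are translated. In lymphoid tissue several ribosomal proteins have roles of their own: Rpl22 is needed for the development of alpha-beta T cells in mice, Rps6 is the classical substrate of the S6 kinases downstream of mTORC1, and free Rpl5 binds Mdm2 and so restrains the breakdown of p53.

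Start-site sequences are shown for the 6 genes on which the results below turn most, because the runs of pyrimidines around their annotated starts differ in length and place. Each line holds the 15 bases on either side of the start used in the promoter table (RefSeq, build GRCm38.p6), which is the outer end of the gene for 4 of them and lies 1942 bases inside the annotated span of Rps2 and 122 bases inside that of Rpl7a. The longest unbroken run of C and T is in capitals, or the first of them where runs tie, as in Rps3a1 and Rpl24. The windows are, for Rps6, chr4:86857353-86857382 (minus strand); for Rps2, chr17:24720048-24720077 (plus strand); for Rpl7a, chr2:26910792-26910821 (plus strand); for Rps3a1, chr3:86142654-86142683 (minus strand); for Rpl24, chr16:55966260-55966289 (plus strand); and for Rpl22l1, chr3:28805493-28805522 (plus strand).
Rps6: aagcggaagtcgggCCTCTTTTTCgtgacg
Rps2: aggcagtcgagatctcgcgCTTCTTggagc
Rpl7a: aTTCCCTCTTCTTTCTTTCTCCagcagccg
Rps3a1: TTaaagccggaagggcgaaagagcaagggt
Rpl24: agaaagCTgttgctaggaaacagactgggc
Rpl22l1: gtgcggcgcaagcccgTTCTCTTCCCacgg
The longest run held 10 bases in Rps6, 6 in Rps2, 21 in Rpl7a, 2 in Rps3a1, 2 in Rpl24 and 10 in Rpl22l1. Of the 64 genes, 55 had a promoter entry, with 66 start windows between them. A run of 6 or more bases was found in 51.5% of these 66 windows, against 29.2% of the 32851 windows of all genes, and the median longest run was 6 bases, against 4. These are counts of letters around an annotated start and do not show which start a sample used.

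The labels were first checked on Git2 itself. Its log2 signal was 6.48 ± 0.28 in GIT2KO thymus and 8.44 ± 0.06 in WT thymus (SD, n = 3 each), 3.89-fold lower (adjusted p = 1.55e-05, limma), and it was called lower in GIT2KO ILN (-1.08), MLN (-1.63) and spleen (-0.74) as well. In spleen the samples of both genotypes overlapped. Array brightness varied: the mean signal per sample ran between 214 and 591, and 45.9 to 52.8% of probes were detected. The dimmest sample was WT spleen replicate 3, so the main spleen results of the ribosomal protein genes are also given without it.

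Ribosomal protein genes were among the brightest on every array. The median gene of the group stood at the 99.5 to 99.8 percentile of all probes, 44 of the 57 genes had a mean log2 signal over 12, 9 lay between 8 and 12, and 4 (Rpl21, Rpl22l1, Rpl3l and Rps15a) lay below 8. Differences of the brightest genes were small in log2 units, and quantile normalization sets the brightest probes of all arrays to the same values. The range of the 9 group means had a median of 0.72 log2 units over the 57 genes, against 1.01 over all tested genes. A difference among the 9 groups was called by the limma F test for 43 of the 57 genes (75.4%), against 78% of all tested genes. The group means of Rplp1, a protein of the acidic stalk that recruits elongation factors, spanned the least, 0.12, and those of Rps3a1 the most, 2.32.

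The thymus stood below the other organs on the quantile-normalized scale. As a mean of the 57 genes, the log2 signal was 12.34 ± 0.05 in GIT2KO thymus and 12.29 ± 0.08 in WT thymus, while the other groups lay between 12.55 and 12.67. PTL averaged 12.63 ± 0.03, GIT2KO ILN 12.59 ± 0.04, WT ILN 12.62 ± 0.02, GIT2KO MLN 12.64 ± 0.04, WT MLN 12.67 ± 0.04, GIT2KO spleen 12.57 ± 0.03 and WT spleen 12.55 ± 0.12 (SD over 3 samples each). The lowest group mean of a gene was in WT thymus for 29 genes and in GIT2KO thymus for 12. As a share of all background-corrected signal, which quantile normalization does not set, the probes of these genes held 5.80 ± 0.20% in GIT2KO thymus and 6.07 ± 0.17% in WT thymus. The same share was 7.95 ± 1.25% in PTL, 6.29 ± 0.35% in GIT2KO MLN and 7.37 ± 1.46% in WT MLN, where 1 sample was as low as 5.71%. That sample, WT MLN replicate 2, was the brightest of all (mean signal 591), and PTL replicate 3 held 9.16% at a mean signal of 277. The dimmest thymus sample, WT thymus replicate 2, held 6.04% at 377. The part of array brightness in this share was not tested. In whole organs, fewer cells of a type and less RNA per cell cannot be told apart.

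**Figure D1:**
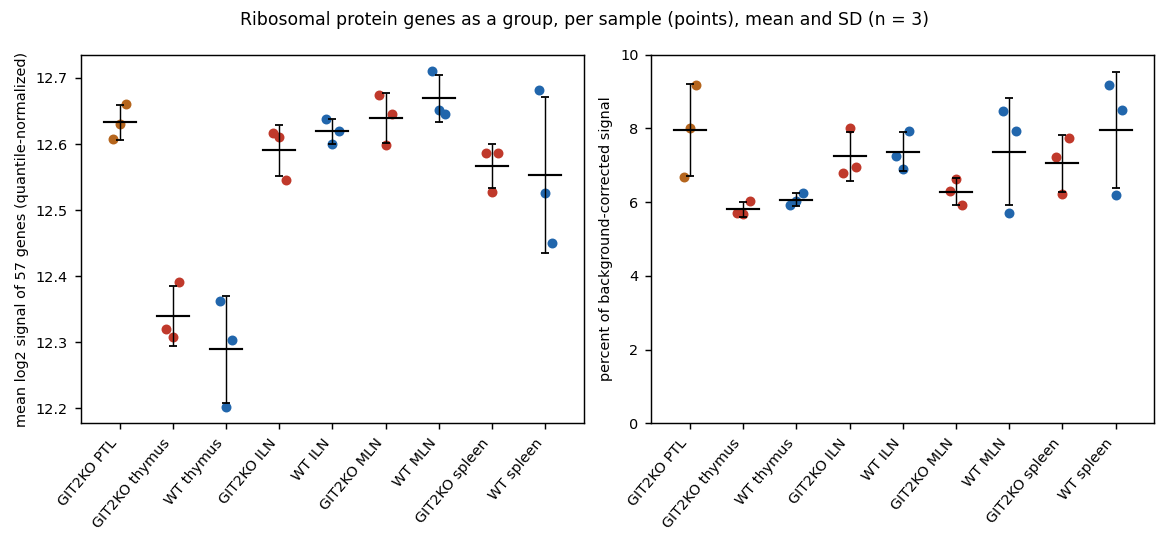
Left, mean log2 signal of the 57 ribosomal protein genes in each of 27 samples (points) with group mean and SD (bars, n = 3); right, the percent of background-corrected signal held by their probes. The 6 thymus samples lie between 12.20 and 12.39 in the left panel, below the other 21 samples, which start at 12.45, while in the right panel the thymus samples (5.67 to 6.25%) overlap with 1 sample each of GIT2KO MLN, WT MLN, GIT2KO spleen and WT spleen.

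**Figure D2:**
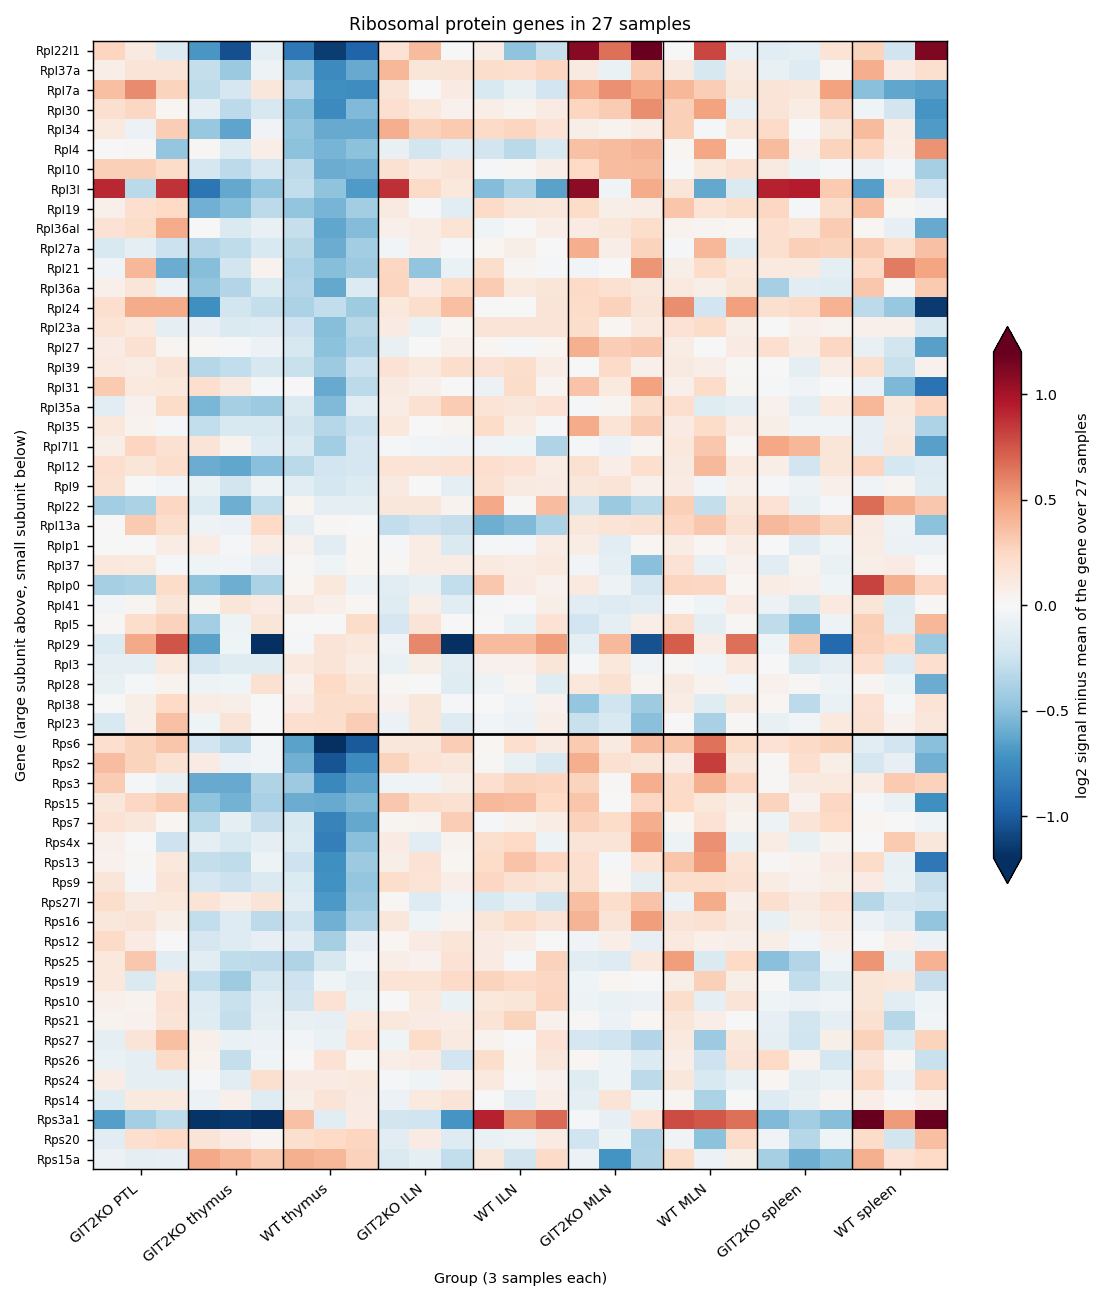
log2 signal of each gene (rows, large subunit above, small subunit below, ordered by the WT thymus value) minus its mean over 27 samples (columns, 3 per group), blue lower and red higher. The 3 WT thymus columns are blue for most genes, and the Rps3a1 row is the deepest blue in the 3 GIT2KO thymus columns.

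Rps3a1 was the 1 member called in all 4 comparisons of GIT2KO with WT. It encodes the mouse form of eS1, a protein on the solvent side of the small subunit near the exit of the messenger RNA. In thymus its log2 signal was 9.63, 9.64 and 9.31 in GIT2KO samples, against 11.16, 10.68 and 10.90 in WT samples. In ILN it was 10.58, 10.56 and 10.10 in GIT2KO samples, against 11.73, 11.36 and 11.48 in WT samples. Every GIT2KO sample lay below every WT sample in both organs. In MLN the values were 10.78, 10.70 and 10.97 in GIT2KO samples, against 11.59, 11.55 and 11.47 in WT samples. In spleen they were 10.27, 10.39 and 10.29 in GIT2KO samples, against 12.03, 11.31 and 12.18 in WT samples. The genotypes again did not overlap, and WT spleen replicate 2 lay apart from the other WT spleens.

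The level of Rps3a1 was 2.62-fold lower in GIT2KO thymus (log2 difference -1.39, SE 0.18, adjusted p = 1.53e-05), 2.16-fold lower in GIT2KO ILN (-1.11, adjusted p = 0.000409), 1.65-fold lower in GIT2KO MLN (-0.72, adjusted p = 0.0305) and 2.88-fold lower in GIT2KO spleen (-1.52, adjusted p = 2.84e-06). The fall was not shown to differ in size between the 4 organs (limma F test, adjusted p = 0.116). The calls in thymus, ILN and spleen were kept when any 1 sample was left out and under all 11 other settings tried. The MLN call was kept in 8 of these 11 settings and with 2 of the 6 samples left out; it was lost without GIT2KO MLN replicate 1 (adjusted p = 0.103), 2 (0.142) or 3 (0.0544) or WT MLN replicate 1 (0.118). Rps3a1 is read by a single tested probe, so no second probe could be set beside it, and close copies of ribosomal protein genes are frequent in mammalian genomes. In PTL its values were 10.14, 10.40 and 10.50, higher than in GIT2KO thymus by 0.82 (SE 0.18, adjusted p = 0.000646). They overlapped with those of GIT2KO ILN (difference -0.07, adjusted p = 0.927).

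In GIT2KO thymus, 8 of the 57 genes were called higher and 4 lower than in WT thymus, against 6.96% and 9.17% of all tested genes (16.1% in either direction). The called genes divided between both subunits (large 5 higher and 3 lower of 35, small 3 higher and 1 lower of 22). The median difference was 0.05, against -0.05 for all tested genes, and it turned to -0.12 when log10 signals were z-transformed per array (medians on that scale are given in log2 units, through the typical SD of log2 signals), so the direction of the group depended on the scaling. In the small subunit, Rps2, which lines the entry of the messenger RNA, had log2 signals of 13.70, 13.54 and 13.58 in GIT2KO thymus, against 13.03, 12.57 and 12.85 in WT thymus. Rps6 had 12.86, 12.78 and 13.06 in GIT2KO thymus, against 12.46, 11.84 and 12.08 in WT thymus. Both were higher in each GIT2KO sample than in any WT sample, by 0.79 (SE 0.15, adjusted p = 0.00153) for Rps2 and by 0.77 (SE 0.13, adjusted p = 0.00055) for Rps6. On the z-transformed scale neither call was kept (adjusted p = 0.241 for Rps2 and 0.124 for Rps6).

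Rps27l, a p53-inducible paralog of Rps27, had 12.22, 12.14 and 12.21 in GIT2KO thymus, against 11.92, 11.36 and 11.61 in WT thymus. The difference was 0.55 (SE 0.12, adjusted p = 0.0034). In the large subunit, Rpl4, which reaches into the exit tunnel for the new protein, was 0.49 higher (SE 0.14, adjusted p = 0.0182) and Rpl7a was 0.49 higher (SE 0.13, adjusted p = 0.0131), with no overlap between genotypes. Rpl36al, Rpl37a and Rpl27 were higher by 0.39, 0.35 and 0.33. The genes called lower, besides Rps3a1, were Rplp0, the base of the acidic stalk (-0.51, SE 0.16, adjusted p = 0.0312), Rpl12, which joins that base (-0.32, adjusted p = 0.0495), and Rpl3, at the peptidyl transferase centre (-0.29, adjusted p = 0.0468).

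Rplp0 read 8.03, 7.92 and 8.13 in GIT2KO thymus, against 8.53, 8.63 and 8.45 in WT thymus. Its genotypes did not overlap, yet the call was lost without any 1 sample other than GIT2KO thymus replicate 3 (adjusted p up to 0.116), and those of Rpl12 and Rpl3 without any of the 6. The call of Rpl7a was lost without GIT2KO thymus replicate 3 (adjusted p = 0.082) or WT thymus replicate 2 (0.0655) or 3 (0.0731), and that of Rpl4 without these or GIT2KO thymus replicate 1 (0.0514 to 0.0643). The number of called genes fell to 4 without WT thymus replicate 2 or 3, to 5 without GIT2KO thymus replicate 1 or 3, and to 7 without GIT2KO thymus replicate 2. Of the 57 genes, 11 lay wholly above and 11 wholly below WT thymus, against 16.5% and 21.1% of all tested genes. Adipocyte markers moved with these groups: the 12 of 17 listed markers that were detected held 0.186 to 0.421% of the signal in GIT2KO thymus and 0.0126 to 0.0922% in WT thymus. The 16 of 22 detected cell division genes held 0.185 to 0.226% in GIT2KO thymus and 0.106 to 0.177% in WT thymus. The part of either in the ribosomal protein differences was not tested.

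**Figure D3:**
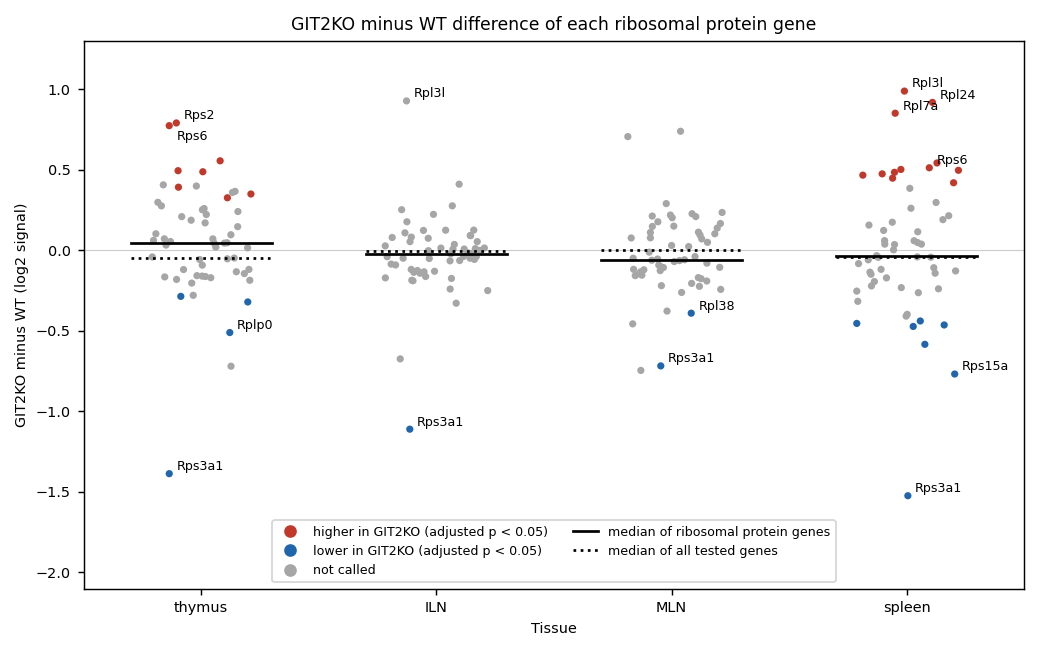
GIT2KO minus WT difference in log2 signal of each of the 57 ribosomal protein genes (points) in 4 tissues, red where called higher, blue where called lower, grey where not called; solid lines give the median of the genes and dotted lines that of all tested genes. Rps3a1 lies lowest in thymus, ILN and spleen, called genes stand on both sides of 0 in thymus and spleen, and ILN and MLN have 1 and 2 called genes.

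In GIT2KO spleen, 12 genes were called higher and 7 lower than in WT spleen, against 10.6% and 13.7% of all tested genes (24.4% in either direction). The median difference was -0.03, against -0.04 for all tested genes, and turned to 0.07 with median scaling (-0.36 from z-transformed signals). Of the large subunit 9 were higher and 4 lower, and of the small subunit 3 were higher and 3 lower. Rpl24, a late-joining protein at the bridge between the subunits, had 12.46, 12.49 and 12.68 in GIT2KO spleen, against 11.95, 11.80 and 11.12 in WT spleen. Rpl7a had 10.59, 10.56 and 10.91 in GIT2KO spleen, against 9.93, 9.80 and 9.78 in WT spleen. Both genes were above all WT samples in every GIT2KO sample, by 0.92 (SE 0.18, adjusted p = 0.000987) for Rpl24 and 0.85 (SE 0.13, adjusted p = 8.31e-05) for Rpl7a. Without WT spleen replicate 3 they remained called, at 0.66 and 0.82.

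Rps6 had 13.27, 13.32 and 13.36 in GIT2KO spleen, against 12.96, 12.87 and 12.59 in WT spleen, a difference of 0.51 (SE 0.13, adjusted p = 0.00758) that missed the threshold without WT spleen replicate 3 (0.40, adjusted p = 0.0562). This call was also lost from z-transformed signals (adjusted p = 0.653) and in a fit of the spleen groups alone (0.0665). Rpl27, Rpl30, Rpl13a, Rpl31, Rps15, Rpl36al and Rps27l were higher by 0.42 to 0.50. Without WT spleen replicate 3, Rpl27 (0.34) and Rps27l (0.43) were still called, while Rpl13a (0.31), Rpl30 (0.31), Rpl31 (0.28), Rpl36al (0.26) and Rps15 (0.23) were not (adjusted p 0.0568 to 0.212). Below WT, after Rps3a1, came Rps15a, with 7.18, 6.99 and 7.09 in GIT2KO spleen, against 8.00, 7.75 and 7.82 in WT spleen. This small-subunit gene differed by -0.77 (SE 0.16, adjusted p = 0.00123) with no overlap, although its call was lost with median scaling (adjusted p = 0.136), from z-transformed signals (0.0533) and in a fit of the spleen groups alone (0.0541).

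The other genes called lower were Rps25 (-0.58), Rpl5 (-0.47, adjusted p = 0.0249), Rplp0 (-0.46, adjusted p = 0.037), Rpl22 (-0.45, adjusted p = 0.0485) and Rpl36a (-0.44, adjusted p = 0.00716). GIT2KO and WT spleens overlapped for Rps25 and Rpl5. The calls of Rps25, Rpl5 and Rplp0 were lost without GIT2KO spleen replicate 1 or WT spleen replicate 1, among others (adjusted p up to 0.198, for Rplp0 without WT spleen replicate 1). Rpl22 read 10.60, 10.33 and 10.40 in GIT2KO spleen, against 11.09, 10.85 and 10.74 in WT spleen, while its paralog Rpl22l1 was not called (-0.41, adjusted p = 0.323). Only 8 genes were called without WT spleen replicate 3, 4 in each direction, and 3 in a fit of the spleen groups alone. Of the 57 genes, 13 lay wholly above and 8 wholly below WT spleen, against 14.1% and 20.4% of all tested genes.

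Blood cell markers and cell division genes moved with the spleen groups. The 12 of 15 detected myeloid and neutrophil markers held 0.955 to 1.14% of the signal in GIT2KO spleen and 0.420 to 0.656% in WT spleen, and the mean log2 signal of the 8 of 14 detected erythroid markers was 11.5 to 11.7 in GIT2KO spleen and 8.61 to 10.9 in WT spleen. The cell division genes held 0.124 to 0.198% in GIT2KO spleen and 0.0548 to 0.102% in WT spleen, with 8 of 16 called higher. The part of these genes in the ribosomal protein differences was not tested.

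Thymus and spleen shared 5 of the genes called higher in GIT2KO, Rpl27, Rpl36al, Rpl7a, Rps27l and Rps6, which are 62.5% of the 8 called higher in thymus and 41.7% of the 12 called higher in spleen; over all tested genes these shares were 38.6% and 25.3%. Rplp0 and Rps3a1 were called lower in both, 50% of the 4 and 28.6% of the 7 called lower, against 41.1% and 27.4% over all tested genes, and no gene was called in opposite directions. The thymus and spleen samples came from the same animals, so the organs are not independent. Over the 4 organs, 25 of the 57 genes were called in at least 1 comparison (43.9%, against 35.6% of all tested genes) and 32 in none. The GIT2KO mean was lower in all 4 organs for 14 genes (24.6%, against 17.8%) and higher in all 4 for 7 (12.3%, against 13.1%), namely Rpl10, Rpl30, Rpl36al, Rpl39, Rpl7a, Rps27l and Rps7.

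Few genes were called in the lymph nodes. In ILN Rps3a1 was the 1 gene called lower and no gene was called higher, against 1.82% and 0.886% of all tested genes (2.71% in either direction). The next smallest adjusted p-values were 0.132 for Rpl3l, which was not detected in WT ILN, and 0.368 for Rps3 (-0.25). The mean of Rpl3l in GIT2KO ILN lay 1.51-fold above the lowest signal that counted as detected on the WT ILN arrays. That figure takes no account of the spread between samples, and the difference was not called. In MLN 2 genes were called lower and none higher, against 1.34% and 0.81% of all tested genes (2.15% in either direction). The second gene was Rpl38, which in mouse embryos is required for the translation of Hox messenger RNAs. It read 13.84, 14.07 and 13.88 in GIT2KO MLN, against 14.39, 14.16 and 14.41 in WT MLN. The samples did not overlap and the difference was -0.39 (SE 0.10, adjusted p = 0.0386), but the call was lost without replicate 1 or 3 of either genotype (adjusted p 0.13 to 0.178), and the second Rpl38 probe read 0.14 higher in GIT2KO MLN (adjusted p = 0.84). Medians over the 57 genes were -0.02 in ILN (all tested genes -0.00) and -0.06 in MLN (all tested genes 0.00), and the MLN median turned to 0.06 with median scaling. In ILN 7 genes lay wholly above and 8 wholly below WT, against 13.7% and 16% of all tested genes, and in MLN 5 and 6, against 9.34% and 9.61%.

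Whether the effect of GIT2 loss differed among the 4 organs was tested directly. The F test called 2 of the 57 genes, Rps6 (adjusted p = 0.0126) and Rpl24 (adjusted p = 0.0419), which is 3.51%, against 8.01% of all tested genes. For Rps6 the GIT2KO minus WT difference was 0.77 in thymus, 0.51 in spleen, 0.08 in ILN and -0.13 in MLN. In the nodes its levels overlapped: 13.23, 13.23 and 13.39 in GIT2KO ILN, against 13.11, 13.29 and 13.20 in WT ILN. For Rpl24 the difference was 0.92 in spleen, 0.18 in ILN, -0.04 in thymus and -0.05 in MLN. Rps2 (0.053), Rpl37a (0.0631) and Rpl7a (0.0649) came next by adjusted p. With the animal as a random block 5 genes were called (Rpl24, Rpl37a, Rpl7a, Rps2 and Rps6), and with the animal as a fixed block 6, Rpl36a being added. Rpl24 was not called with the replicate number as a block (Rpl37a, Rps2 and Rps6) or with no filter on dim probes (Rps6 alone), and with median scaling or z-transformed signals no gene was. With 1 sample left out 1 to 7 genes were called, the most without WT spleen replicate 2.

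**Figure D4:**
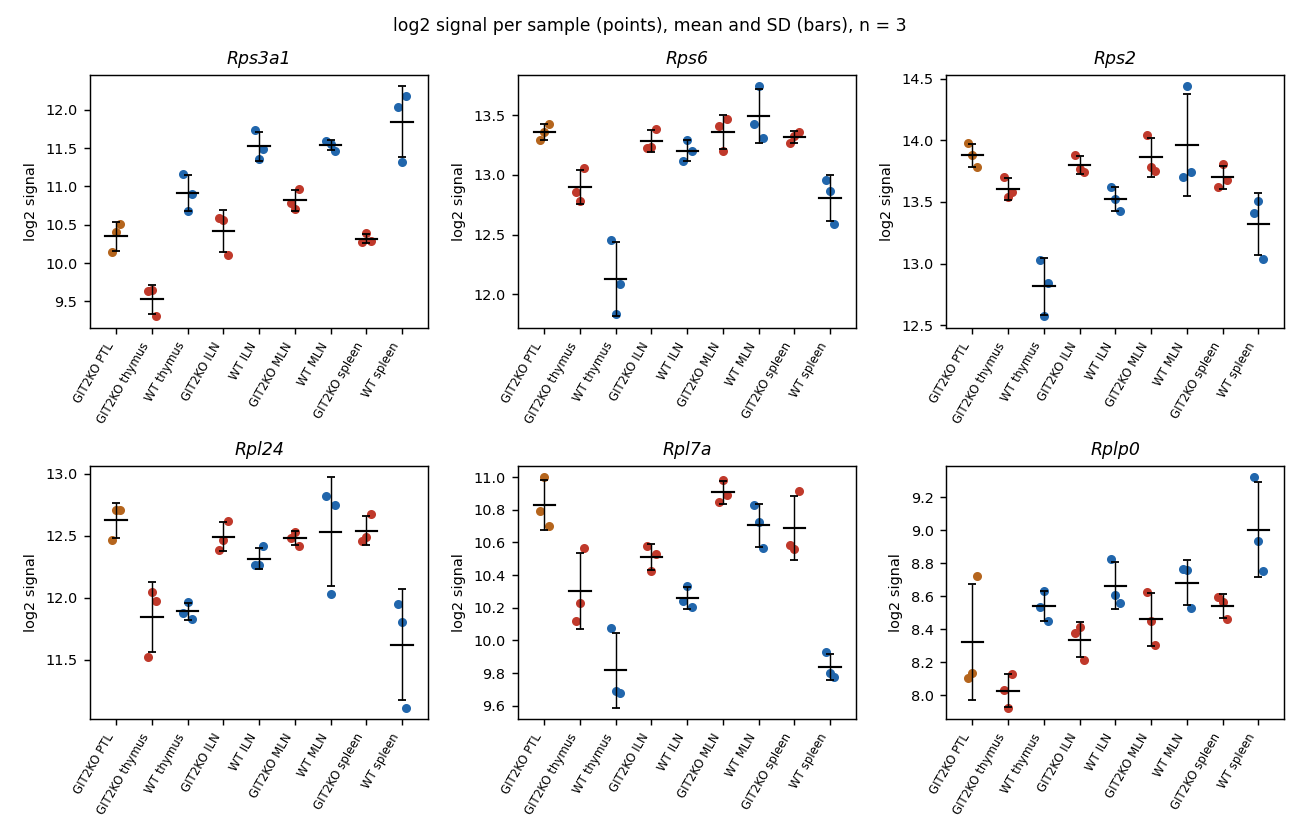
log2 signal of Rps3a1, Rps6, Rps2, Rpl24, Rpl7a and Rplp0 in each sample (points; brown PTL, red other GIT2KO tissues, blue WT tissues), with group mean and SD (n = 3); the vertical axes differ and do not start at 0. Rps3a1 is lower in every GIT2KO tissue than in its WT counterpart, whereas Rps6 and Rps2 are lowest in WT thymus and Rpl24 in WT spleen.

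The family stood higher in PTL than in GIT2KO thymus under every scaling tried. Of the 57 genes 25 were called higher in PTL and 1 lower, against 20.1% and 21.3% of all tested genes (41.4% in either direction). In all, 51 genes had a higher mean in PTL. The median difference was 0.27, against -0.00 for all tested genes, and above 0 under the other scalings (0.23 with median scaling, where 8 genes were called higher and 1 lower, and 0.72 from z-transformed signals). With median scaling 14.2% of all tested genes were called higher and 22.9% lower. Both subunits took part, with 14 of 35 large-subunit genes higher and none lower (median 0.27) and 11 of 22 small-subunit genes higher and 1 lower (median 0.28). Wholly above GIT2KO thymus lay 31 genes and wholly below it 1, against 24.2% and 26.1% of all tested genes.

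Rpl12 had 13.84, 13.79 and 13.85 in PTL, against 13.04, 13.02 and 13.14 in GIT2KO thymus, a difference of 0.76 (SE 0.11, adjusted p = 6.83e-06). Rpl24 had 12.46, 12.71 and 12.71 in PTL, against 11.53, 12.05 and 11.98 in GIT2KO thymus, a difference of 0.78 (SE 0.18, adjusted p = 0.0015). Rps3, which holds the messenger RNA at its entry and also acts in DNA repair, had 13.57, 13.25 and 13.18 in PTL, against 12.66, 12.67 and 12.91 in GIT2KO thymus. All 3 genes were higher in every PTL sample than in any GIT2KO thymus, by 0.59 for Rps3 (SE 0.12, adjusted p = 0.000279), and the second Rps3 probe gave 0.91 (adjusted p = 8.9e-06). Rps15 (0.71), Rpl19 (0.64), Rpl35a (0.51) and Rpl10 (0.51), the last of which is needed for the subunits to join, were higher as well.

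The 1 gene called lower in PTL was Rps15a, with 7.51, 7.47 and 7.48 in PTL, against 8.03, 7.98 and 7.89 in GIT2KO thymus (-0.48, SE 0.16, adjusted p = 0.0186); without GIT2KO thymus replicate 1 it missed the threshold (adjusted p = 0.0618). The call for Rpl29 (0.98, SE 0.39, adjusted p = 0.0499) rested on scattered samples, 11.94, 12.56 and 12.87 in PTL, against 11.47, 12.06 and 10.89 in GIT2KO thymus. These overlapped, and with the animal as a fixed block the difference was 0.39 (adjusted p = 0.149). GIT2KO replicate 3 read low for Rpl29 in every organ that animal gave, at 10.81 in ILN, 11.06 in MLN, 11.18 in spleen and 10.89 in thymus. The number of called genes fell to 16 without GIT2KO thymus replicate 1 and to 17 without GIT2KO thymus replicate 2, and lay at 18 to 22 without any other sample.

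Markers of double-positive thymocytes were lower in PTL than in GIT2KO thymus. The 10 of 13 detected markers of double-positive thymocytes held 0.0473 to 0.0604% of the signal in PTL, 0.347 to 0.365% in GIT2KO thymus and 0.0541 to 0.0622% in GIT2KO ILN. The 10 of 12 detected B cell markers held 0.141 to 0.219% in PTL and 0.0110 to 0.0333% in GIT2KO thymus, and the cell division genes 0.0614 to 0.0678% in PTL and 0.185 to 0.226% in GIT2KO thymus. Their part in the ribosomal protein difference was not tested, and cell make-up and level per cell cannot be told apart. GIT2KO ILN came from the same mice as PTL except for replicate 3. Set against GIT2KO ILN, PTL had a median of 0.03, which turned to -0.03 with median scaling. In PTL 1 gene was called higher and none lower, against 2.4% and 2.19% of all tested genes (4.59% in either direction). That gene was Rpl13a, which leaves the ribosome upon interferon-gamma to silence inflammatory messenger RNAs. It read 10.58, 10.88 and 10.79 in PTL, against 10.27, 10.32 and 10.30 in GIT2KO ILN (0.45, SE 0.12, adjusted p = 0.0348), and missed the threshold with the animal as a fixed block (adjusted p = 0.0887) and without any 1 sample other than PTL replicate 1 (adjusted p up to 0.128). Here 8 genes lay wholly above and 2 wholly below, against 9.43% and 12.7% of all tested genes.

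**Figure D5:**
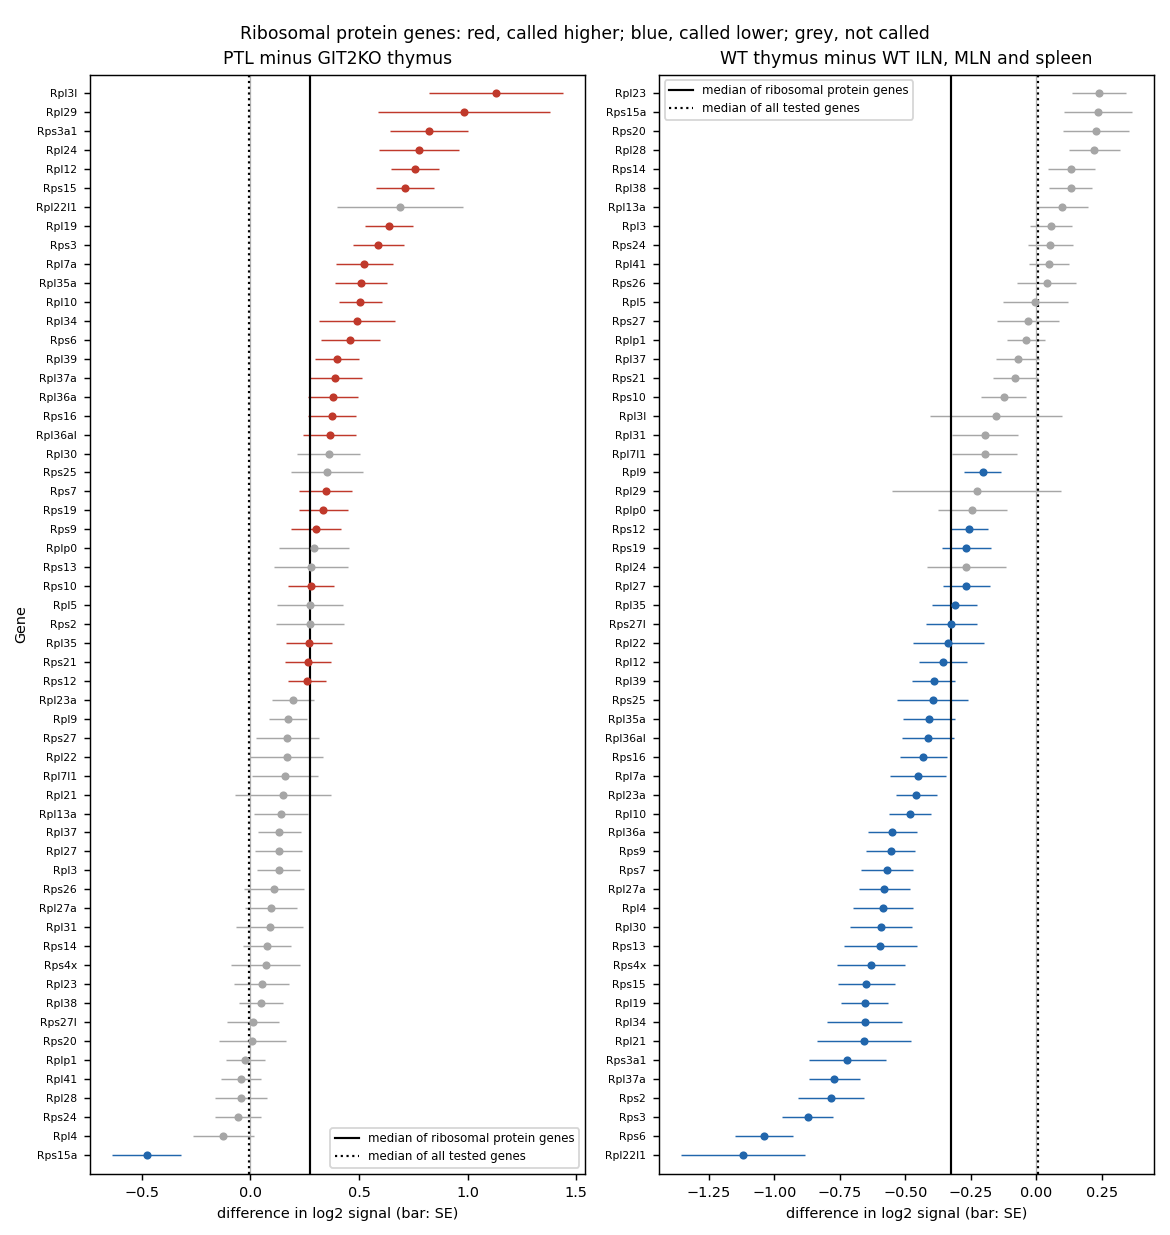
Difference in log2 signal (points, with SE bars) of each of the 57 genes for PTL minus GIT2KO thymus (left) and WT thymus minus the mean of WT ILN, MLN and spleen (right); red marks genes called higher, blue those called lower. The solid line, the median of the genes, stands at 0.27 in the left panel and -0.32 in the right, and the dotted line of all tested genes stands near 0 in both.

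The WT thymus was next set against the mean of WT ILN, MLN and spleen, a comparison that shares no sample with the PTL one. In WT thymus 34 of the 57 genes were called lower and none higher, against 24% and 25.3% of all tested genes (49.3% in either direction). The median difference was -0.32, against 0.01 for all tested genes, and stayed below 0 under each scaling tried. Under median scaling 25 genes were called lower (19.2% of all tested genes), and from z-transformed signals 23 (22.3%). Of the large subunit 20 of 35 genes were lower (median -0.31) and of the small subunit 14 of 22 (median -0.36). With any 1 sample left out, 29 to 36 genes were called. Wholly below all 9 peripheral samples lay 15 genes and wholly above them 1, against 12.7% and 15.1% of all tested genes.

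Rps6 was 12.46, 11.84 and 12.08 in WT thymus, 13.11 to 13.29 in WT ILN, 13.31 to 13.74 in WT MLN and 12.59 to 12.96 in WT spleen. It was 2.06-fold lower in WT thymus (-1.04, SE 0.11, adjusted p = 2.84e-08). Rpl22l1 was 5.52, 5.23 and 5.41 in WT thymus, 5.89 to 6.47 in WT ILN, 6.30 to 7.18 in WT MLN and 6.13 to 7.50 in WT spleen. This paralog of Rpl22, which Rpl22 holds down in mice, was 2.17-fold lower in WT thymus (-1.12, SE 0.24, adjusted p = 0.000346) and was detected in 2 of the 3 WT thymus samples. Rpl22 was itself lower in WT thymus by less (-0.34, SE 0.14, adjusted p = 0.0459), and its samples overlapped. Rps3 (-0.87), Rps2 (-0.78), Rpl37a (-0.77), Rps3a1 (-0.72) and the X-linked Rps4x (-0.63) followed, all with no overlap with the peripheral samples.

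Of the 25 genes called higher in PTL than in GIT2KO thymus, 20 were also called lower in WT thymus than in WT peripheral organs, which is 20 of the 34 called there. These shares, 80% and 58.8%, lay near those over all tested genes, 76.6% and 64.1%. The 20 genes include Rpl12, Rpl19, Rps15, Rps3, Rps6 and Rpl7a. The double-positive thymocyte markers held 0.368 to 0.450% of the signal in WT thymus and at most 0.0821% in any WT peripheral sample, and the cell division genes held 0.106 to 0.177% in WT thymus, 0.0325 to 0.0425% in WT ILN, 0.0519 to 0.158% in WT MLN and 0.0548 to 0.102% in WT spleen. The B cell markers held 0.0160 to 0.0357% in WT thymus and 0.158 to 0.250% in the WT peripheral organs, with 10 of 10 called lower, and 10 of 12 myeloid and 9 of 10 lymph node stroma markers were called lower. The part of any of these in the differences was not tested.

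In WT spleen, 1 gene was called higher and 12 lower than in the mean of WT ILN and MLN, against 15.8% and 13.8% of all tested genes (29.6% in either direction), with a median of -0.07, which turned to 0.05 with median scaling and 0.23 from z-transformed signals. Rpl24 differed most, with 11.95, 11.80 and 11.12 in WT spleen, 12.27, 12.26 and 12.42 in WT ILN and 12.82, 12.03 and 12.75 in WT MLN (-0.80, SE 0.16, adjusted p = 0.000564). Rpl7a (-0.65, adjusted p = 0.000147), Rpl31 (-0.58), Rps13 (-0.55) and Rps6 (-0.54) came after it, and Rpl24, Rpl7a and Rps6 did not overlap with the nodes. The calls of Rpl31, Rps13 and Rps6 were not kept from z-transformed signals (adjusted p 0.532 to 0.613). Those of Rps13 (0.092) and Rps6 (0.0624) were also lost with median scaling, and that of Rpl31 with the mean over its probes (0.0866). Rpl4 was the gene called higher (0.33, adjusted p = 0.0398), a call lost with 6 of the 9 samples left out in turn and furthest without WT spleen replicate 3 (0.21, adjusted p = 0.3). The same WT spleen samples enter the GIT2KO spleen comparison above, so the 2 sets of differences are not independent. Without WT spleen replicate 3, 6 genes were called and Rps13 was not among them (-0.24, adjusted p = 0.156). Of the markers, 8 of 8 erythroid, 9 of 12 myeloid and 7 of 16 cell division genes were called higher in WT spleen, and 7 of 10 stroma genes lower; the erythroid ones held 0.440 to 0.955% of the signal in WT spleen and at most 0.0872% in WT nodes. Their part was not tested. Wholly above the nodes lay 1 gene and wholly below them 8, against 9.32% and 7.36% of all tested genes.

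Some members are named as paralogs of another ribosomal protein, and 5 of these were tested: Rpl22l1, Rpl36al, Rpl3l, Rpl7l1 and Rps27l. Whether each takes the place of its partner in the ribosome was not tested. In GIT2KO spleen 4 of the 5 were higher and none lower (median 0.45), against 10.6% and 13.7% of all tested genes, and in GIT2KO thymus 2 were higher and none lower, against 6.96% and 9.17%. Without WT spleen replicate 3, Rps27l alone of the 5 kept its call in GIT2KO spleen (0.43, adjusted p = 0.0324). Rpl7l1 was 0.54 higher in GIT2KO spleen (SE 0.15, adjusted p = 0.0112), but 0.32 without WT spleen replicate 3 (adjusted p = 0.111). With all samples, the second Rpl7l1 probe read 0.06 higher in GIT2KO spleen (adjusted p = 0.894). Rpl3l, known as the striated muscle counterpart of Rpl3, was near the limit of detection. It read 6.53, 6.55 and 5.92 in GIT2KO spleen, against 4.94, 5.73 and 5.36 in WT spleen (0.99, SE 0.31, adjusted p = 0.021), and that call was lost without GIT2KO spleen replicate 1 or 2 or WT spleen replicate 1 or 3 (adjusted p 0.0558 to 0.101). In PTL it read 6.51, 5.28 and 6.47, and it was not detected on any GIT2KO thymus array. The difference between the measured values, 1.13, was called (adjusted p = 0.00472, limma). The PTL mean lay 1.68-fold above the lowest signal that counted as detected on each GIT2KO thymus array. That level averaged 5.34, so PTL replicate 2 lay below it, and the 1.68-fold figure takes no account of the spread between samples.

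Some members are tied to disease. Of 12 tested genes whose human counterparts are mutated in Diamond-Blackfan anaemia, a failure of red cell formation, 1 was called higher and none lower in GIT2KO thymus and 2 each way in GIT2KO spleen, against 16.1% and 24.4% of all tested genes called in either direction. Rps19, the one most often mutated, differed by -0.17 in thymus and -0.14 in spleen, neither of which was called, and was 0.33 higher in PTL than in GIT2KO thymus (adjusted p = 0.0201). Of 9 tested members that bind Mdm2 or act on p53, 1 was higher in GIT2KO thymus and 1 higher and 2 lower in GIT2KO spleen, against the same shares. In none of the 8 comparisons were Rpl23, Rpl28, Rpl37, Rpl41, Rplp1, Rps14, Rps20, Rps24, Rps26 or Rps27 called by the brightest probe.

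Other parts of the translation machinery were read from gene lists beside the ribosomal protein genes. The proteins of the mitochondrial ribosome, which serves the mitochondrial genome alone, are encoded by a separate set of genes. Of 70 tested, 18 were higher and 1 lower in GIT2KO thymus (median 0.27), and 21 higher and 7 lower in GIT2KO spleen (median 0.18); over all tested genes 6.96% were higher and 9.17% lower in thymus and 10.6% and 13.7% in spleen. In PTL against GIT2KO thymus 3 of them were higher and 12 lower (median -0.10), against 20.1% and 21.3% of all tested genes, and in WT thymus against WT peripheral organs 13 were higher and 3 lower (median 0.08), against 25.3% and 24%. Among 26 initiation factors 5 were higher and none lower in GIT2KO thymus, and 6 higher and 2 lower in GIT2KO spleen. In PTL against GIT2KO thymus 1 of these factors was higher and 7 lower (median -0.23), against 20.1% and 21.3% of all tested genes. Eif4g2, which drives cap-independent initiation, was higher in both (1.40 and 1.61) and lower in PTL than in GIT2KO thymus (-1.08). Among 10 elongation factors 1 was higher in GIT2KO thymus, and 2 were higher and 2 lower in GIT2KO spleen, where Eef2, the translocase, was 2.37 higher (adjusted p = 0.00017). Spleen values of these and the following lists are given only with WT spleen replicate 3 included.

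Of 44 ribosome assembly genes 6 were higher and 2 lower in GIT2KO thymus, led by Nop10 (1.02) and Nhp2 (0.92), both parts of the complex that pseudouridylates ribosomal RNA, and 5 were higher and 7 lower in GIT2KO spleen, against the thymus and spleen shares of all tested genes above (6.96% and 9.17%, 10.6% and 13.7%). Of 13 regulators of ribosome supply, only Tsc2 and Eif4ebp1 are described here. Tsc2, which restrains mTORC1, was called lower in each GIT2KO organ, with differences of -0.68 in thymus, -0.70 in ILN, -0.76 in MLN and -0.51 in spleen. Over all tested genes, 0.6% were called in all 4 GIT2KO comparisons. By the F test the GIT2KO effect differed among organs for 3 of the 13 regulators (23.1%), against 8.01% of all tested genes. Eif4ebp1, the mTORC1-controlled inhibitor of cap binding, was 1.26 higher in GIT2KO thymus (adjusted p = 0.0004), 0.78 higher in PTL than in GIT2KO thymus and lower in WT thymus than in WT peripheral organs (-0.93). A list of 7 genes outside the name rule held genes of TOP messenger RNAs or of ribosome-bound factors. Among them Fau encodes a protein of the small subunit, but its symbol does not begin with Rps. Of the 7, 2 were higher in PTL than in GIT2KO thymus, Vim (1.28) and Fau (0.52), and 1 lower, Slc25a5 (-0.57), against 20.1% and 21.3% of all tested genes. In WT thymus against WT peripheral organs 2 were lower, Vim (-1.60) and Btf3 (-0.31), and none higher, against 24% and 25.3%. In GIT2KO thymus 3 of the 7 were higher and 1 lower, against 6.96% and 9.17%. In GIT2KO spleen 1 was higher and 1 lower, against 10.6% and 13.7%.

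Second probes did not always follow the brighter ones. Of the 57 genes 11 had more than 1 tested probe, and in 37 of their 88 gene and comparison pairs the probes differed in sign, although in none were probes called both ways. The genes with such pairs were Rpl21, Rpl23, Rpl27a, Rpl31, Rpl38, Rpl7l1, Rps19, Rps24, Rps3 and Rps9. The second Rps19 probe was 0.99 higher in GIT2KO thymus (adjusted p = 0.0033), where the brighter one gave -0.17. The second Rpl38 probe was 0.93 higher in GIT2KO spleen (adjusted p = 0.0019), where the brighter one gave -0.23. For Rpl31 the second probe read 0.13 higher in WT spleen than in nodes (adjusted p = 0.384), where the brighter one gave -0.58. It read 0.06 higher in GIT2KO spleen (adjusted p = 0.771), against 0.47 for the brighter one. In GIT2KO thymus the 2 Rpl31 probes gave 0.40 and 0.41. Another Rpl23 probe was called lower in WT thymus than in WT peripheral organs (-0.61, adjusted p = 0.000123), lower in WT spleen than in nodes (-0.33) and higher in GIT2KO thymus (0.41), and the second Rps24 probe was 0.43 higher in WT spleen than in nodes. The second Rps9 probe was called lower in GIT2KO thymus (-0.62) and GIT2KO spleen (-0.73), where the brighter one gave 0.24 and 0.16. For these genes the values above are those of the brighter probe.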

How the data were processed

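RNA was hybridised to Illumina MouseRef-8 bead arrays (31 arrays, 27 samples, of which 4 were run again and averaged). The authors deposited, per array, the intensity and the detection p-value of 25697 probes, exported by GenomeStudio 2011.1 per the submitters' processing notes, and a score, the log10 signal z-transformed per array (recomputed to within 5e-10). The intensities were background-corrected with limma's neqc on the detection p-values (limma 3.58.1, R 4.3.3, offset 16), quantile-normalized and log2-transformed. Probes with a detection p under 0.05 on 3 or more arrays were kept (15291), and the brightest probe on average stood for a gene. Symbols came from GEO's platform annotation (23978 probes with 1 symbol, 1719 with none). A single limma model with trend covered the 9 groups, with Benjamini-Hochberg adjustment over all tested probes and a threshold of 0.05. The test was checked on simulated data. P-values of this model rest on a spread between samples that was pooled over all 9 groups of 3. Samples of different tissues from 1 animal were treated as independent in it. The number of arrays limits the precision.

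Within a genotype, same-numbered samples come from 1 animal, by the labels' animal names, apart from PTL replicate 3. Over 44 such pairs of tissues the deviations from the group means correlated with a median r of 0.12 (-0.23 to 0.41). GIT2KO and WT samples share only a number. Named genes were, per comparison, up to 5 called members in each direction by size of difference, the 3 of smallest adjusted p where fewer than 3 were called, the 8 members of widest range, a list of members with known roles, members whose probes differed in direction, and, from lists of translation genes, up to 3 called genes in each direction; other genes named within a count were chosen after their values were seen. The members, lists and tests were chosen with earlier results of these data known. Alternatives were median scaling, z-transformed signals, no background correction, other filters, the mean over probes, first arrays only, robust variance, fits of the compared groups alone, blocks, and leaving out each sample. No probe sequence or protein sequence was used here.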

Additional observations from a re-analysis of the deposited data

Results flagged for a closer look

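The GIT2KO effect on 2 ribosomal protein genes differed among thymus, ILN, MLN and spleen by a limma F test on the differences themselves. These are 3.51% of the 57 genes, below the 8.01% of all tested genes called by this test. For Rps6 the adjusted p was 0.0126, with GIT2KO minus WT differences of 0.77 in thymus, 0.08 in ILN, -0.13 in MLN and 0.51 in spleen. For Rpl24 it was 0.0419, with -0.04, 0.18, -0.05 and 0.92 in the same order of organs. Neither was called with median scaling or with z-transformed signals. Rpl24 was also not called with the replicate number as a block or with no filter on dim probes, where Rps6 was. Groups held 3 samples, so single outlying samples were not looked for by a formal rule.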

How the results depend on the processing

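Quantile normalization holds the brightest probes of all arrays to the same values, 44 of the 57 genes are among them, and 3 samples per group leave small differences undetected. Of 182 other settings of counts and medians, 137 left the value unchanged within the limits set and 45 moved it. Over 40 named calls, 391 of 458 other settings and 222 of 288 settings with 1 sample left out kept the call, 67 and 66 lost it, and none turned its direction. The causes were not tested. Shares of all tested genes are given below for median scaling and z-transformed signals, but not for the other settings or with samples left out. There a general loss of calls cannot be told from a loss in this family.

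With median scaling the number of called genes was 3 in GIT2KO thymus, 0 in MLN, 10 in spleen (8 higher, 2 lower), 9 for PTL against GIT2KO thymus, 0 for PTL against GIT2KO ILN and 7 for WT spleen against nodes (4 higher, 3 lower). The medians were 0.0555 in MLN, 0.0733 in spleen, 0.232 for PTL against GIT2KO thymus, -0.0347 for PTL against GIT2KO ILN and 0.0473 for WT spleen. Median scaling also moved the median of all genes, to 0.17 in MLN, 0.08 in spleen, -0.12 for PTL against GIT2KO thymus and -0.14 for PTL against GIT2KO ILN. Relative to these shifts of all genes, the median of the family stood lower in MLN and higher in both PTL comparisons. The share of higher calls among all called genes was 69.3% in MLN (37.6% with quantile normalization), 69.5% in spleen (43.5%), 38.3% for PTL against GIT2KO thymus (48.6%) and 31.5% for PTL against GIT2KO ILN (52.3%). Of all tested genes, 3.41% were called higher and 4.24% lower in GIT2KO thymus (6.96% and 9.17% with quantile normalization). In spleen these shares were 10.1% and 4.45% (10.6% and 13.7%), and in MLN 1.42% and 0.629% (0.81% and 1.34%). For PTL they were 14.2% and 22.9% against GIT2KO thymus (20.1% and 21.3%) and 0.743% and 1.62% against GIT2KO ILN (2.4% and 2.19%). For WT spleen they were 9.62% and 10.4% (15.8% and 13.8%).

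From z-transformed log10 signals 4 genes were called in thymus, 0 in MLN, 9 in spleen (5 higher, 4 lower), 0 for PTL against GIT2KO ILN, 7 for WT spleen (4 higher, 3 lower) and 24 for any difference among groups, with medians in log2 units of -0.12 in thymus, -0.43 in MLN, -0.36 in spleen, 0.72 for PTL against GIT2KO thymus, 0.33 for PTL against GIT2KO ILN, -0.43 for WT thymus and 0.23 for WT spleen. The share of higher calls among all called genes was then 54.7% in spleen, 51.3% in MLN and 42.2% for WT spleen (53.5% with quantile normalization). Of all tested genes, 6.14% were called higher and 6.54% lower in thymus, 12.6% and 10.4% in spleen, and 0.924% and 0.877% in MLN. These shares were 1.69% and 1.8% for PTL against GIT2KO ILN and 13.7% and 18.8% for WT spleen. With no filter on dim probes 7 genes were called in thymus, 1 in MLN, 0 for PTL against GIT2KO ILN and 1 for the difference among organs. In fits of the compared groups alone 2 were called in ILN, 1 in MLN, 3 in spleen, 0 for PTL against GIT2KO ILN and 6 for WT spleen. The mean over probes and the first arrays alone each gave 1 in MLN. The difference among organs was called for 0 genes with median scaling or z-transformed signals. Without background correction the family held 5.12% of the signal in GIT2KO thymus and 5.23% in WT thymus, 6.31% in GIT2KO ILN and 6.41% in WT ILN, 5.62% in GIT2KO MLN and 6.22% in GIT2KO spleen.

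With the animal as a random block, the difference among organs was called for 5 genes, and with the animal as a fixed block, added after seeing the data, for 6. Between genotypes the samples have nothing in common but a number, and same-numbered deviations correlated with a median r of 0.06 (-0.13 to 0.26) over 12 pairs; with that number as a replicate block 10 genes were called in thymus, 1 in ILN, 2 in MLN, 20 in spleen, 26 for PTL against GIT2KO thymus, 1 for PTL against GIT2KO ILN, 34 for WT thymus, 13 for WT spleen and 3 for the difference among organs. The animal block ended the calls of Rpl29 and Rpl13a given above.

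With 1 sample left out, 4 to 14 genes were called in thymus, 0 to 2 in MLN, 8 to 23 in spleen, 16 to 22 for PTL against GIT2KO thymus, 0 to 1 for PTL against GIT2KO ILN, 29 to 36 for WT thymus, 6 to 17 for WT spleen and 1 to 7 for the difference among organs, which had 7 without WT spleen replicate 2. The medians ran between 0.02 and 0.09 in thymus, -0.04 and -0.01 in ILN, -0.0666 and -0.0206 in MLN, -0.07 and 0.04 in spleen, 0.24 and 0.30 for PTL against GIT2KO thymus, 0.02 and 0.05 for PTL against GIT2KO ILN, -0.35 and -0.30 for WT thymus, and -0.14 and -0.02 for WT spleen.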

Other observations

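Genes outside the family were ranked by how closely their 9 group means followed the mean of the 57 ribosomal protein genes. The 5 closest were Rcn3 (Pearson's r = 0.990 over 9 group means), Hpse (0.989), Foxo1 (0.988), Marco (0.985) and H2-DMa (0.980). All 5 were low in both thymus groups: Marco, a scavenger receptor of marginal zone and lymph node macrophages, averaged 5.08 in GIT2KO thymus and 4.78 in WT thymus on the log2 scale, and 9.14 to 10.8 in the other 7 groups. H2-DMa, which loads peptides on MHC class II, averaged 10.7 in GIT2KO thymus and 10.6 in WT thymus, and 11.9 to 12.4 elsewhere. The groups share animals and tissues, and the values are a description of likeness only.

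Promoter windows of 300 bases held the letters CTCTTT in the transcribed direction in 34.8% of the 66 windows of ribosomal protein genes and in 12.1% of all 32851 windows, and in the opposite direction in 10.6% and 12.4%. For CTTTCC, whose first letters can overlap with the last of CTCTTT, the shares were 36.4% and 14.1% in the transcribed direction and 19.7% and 14.4% in the opposite one.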
